A study of Mus musculus with 4 samples.

Results

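The genes described here are 9 transcription factor genes of the GABAergic lineage of the ganglionic eminences: Dlx1, Dlx2, Dlx5, Dlx6, Lhx6, Lhx8, Nkx2-1, Sp9 and Sox6. They were chosen by gene name from a deposited expression table of 55414 genes, and all 9 were found and passed the filter on low counts that left 17017 genes for testing. RNA came from the cerebral cortex of C57BL/6J mice on postnatal day 1. All mice carried floxed alleles of Mkk7 (Mkk7flox/flox), the gene for a kinase that activates JNK. The 2 libraries labelled Control (replicates 2 and 3) had no Cre in their genotype, and the 2 labelled cKO (replicates 2 and 3) also carried Emx1-Cre. Emx1-Cre recombines in progenitors of the dorsal telencephalon, which produce the excitatory neurons and much of the glia of the cortex, and the labels give no recombination rate. Separate animals or litters are not named for the replicates. The 2 cKO libraries differed in sex (given below) and so did not come from the same animal, while this is not known for the Control libraries. Each p-value measures the spread between these libraries, which may be technical in part.

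Most GABAergic neurons of the forebrain are born ventrally, in the ganglionic eminences, and most do not come from the Emx1 lineage. DLX homeodomain factors switch on the GABAergic programme across all eminences. In the medial eminence NKX2-1 induces the LIM-homeodomain factors LHX6 and LHX8. LHX6 then guides the migration and maturation of interneurons that reach the cortex and acts upstream of SOX6, while LHX8 specifies cholinergic and other neurons that remain in the basal forebrain and striatum. The zinc finger factor SP9 is needed for interneurons and for striatal neurons of the indirect pathway. In the newborn cortex Lhx6, Dlx1 and Sox6 are known to be on in migrating and settled interneurons, whereas Nkx2-1 is switched off in cells on their way to the cortex.

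Of the 7 members with a window in the RefSeq table, the promoters of Dlx2, Sp9, Nkx2-1 and Lhx8 are shown because these genes differed in their values: the groups overlapped for Dlx2, while Sp9 was 1.75-fold, Nkx2-1 2.96-fold and Lhx8 4.22-fold lower in the cKO-labelled libraries. Each is the 250 bases before the RefSeq start site (build GRCm38.p6), printed 5′ to 3′ on the strand of the gene. The windows are chr2:71546755-71547004 (minus strand) for Dlx2, chr2:73271676-73271925 (plus strand) for Sp9, chr12:56536909-56537158 (minus strand) for Nkx2-1 and chr3:154330561-154330810 (minus strand) for Lhx8. Capitals mark a GC box (GGGCGG on either strand), bound by SP and KLF factors, or a SOX site (AACAAT on either strand).
Dlx2: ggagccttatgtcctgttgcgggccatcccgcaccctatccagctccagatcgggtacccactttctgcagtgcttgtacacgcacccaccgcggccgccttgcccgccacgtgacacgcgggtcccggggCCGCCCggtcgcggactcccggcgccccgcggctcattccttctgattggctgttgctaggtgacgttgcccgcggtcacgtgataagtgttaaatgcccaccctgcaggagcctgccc
Sp9: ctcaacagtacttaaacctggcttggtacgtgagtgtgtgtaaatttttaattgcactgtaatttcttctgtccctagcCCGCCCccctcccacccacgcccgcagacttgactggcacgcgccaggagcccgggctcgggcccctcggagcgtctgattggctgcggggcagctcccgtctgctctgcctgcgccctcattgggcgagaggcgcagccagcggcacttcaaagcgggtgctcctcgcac
Nkx2-1: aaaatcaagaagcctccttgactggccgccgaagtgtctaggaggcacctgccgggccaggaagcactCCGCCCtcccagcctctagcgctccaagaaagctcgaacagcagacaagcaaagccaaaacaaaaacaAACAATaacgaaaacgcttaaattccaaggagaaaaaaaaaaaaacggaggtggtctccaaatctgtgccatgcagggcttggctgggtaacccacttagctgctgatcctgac
Lhx8: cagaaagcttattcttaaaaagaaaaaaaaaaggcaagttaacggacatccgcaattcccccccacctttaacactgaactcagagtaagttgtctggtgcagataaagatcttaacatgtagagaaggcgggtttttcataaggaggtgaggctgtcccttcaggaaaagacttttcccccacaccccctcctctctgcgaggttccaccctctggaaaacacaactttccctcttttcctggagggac
Dlx2, Sp9 and Nkx2-1 each held 1 GC box, Nkx2-1 also held 1 SOX site, and Lhx8 held neither. A GC box was present in 32.7% and a SOX site in 9.42% of all 32851 promoter windows of that length in the table. The homeodomain core TAATTA, searched on both strands, was in none of the 14 windows of the 7 members in the table and in 4.84% of all windows; the TATA box letters TATAAA were in 1 Sox6 window and in 12.4% of all windows. The windows of Dlx2 and Sp9 were 66.4% and 62.4% G and C, against 50.8% for Nkx2-1, 46.0% for Lhx8 and a median of 52.4% over all windows. These matches describe the letters only, and no binding was measured.

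Totals lay between 19421470 and 22511175 counts per library, with counts in 21598 to 21914 genes. Defining genes of cortical excitatory neurons were present in all libraries, with Neurod6 at 480 and 587 CPM (counts scaled with TMM factors to a library of 1000000) in Control 2 and Control 3 and 730 and 720 CPM in cKO 2 and cKO 3, without overlap. Map2k7, the gene of MKK7, was at 38.4 and 30.4 CPM in the Control-labelled libraries and at 47.9 and 48.2 CPM in the cKO-labelled libraries, so the label was not borne out by the summed RNA of this gene; the labels do not name the deleted exons, and reads outside them check nothing. Directions below rest on the labels. The library labelled cKO 3 had 0 counts of Xist and 985 of the Y-linked gene Ddx3y, while the other libraries had at least 1004 of Xist and 0 of Ddx3y, so it came from a male and the others from females.

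Lhx8, Nkx2-1 and Dlx6 were several-fold lower in the cKO-labelled libraries, Dlx5 and Sp9 less so, and Dlx1, Dlx2, Lhx6 and Sox6 differed little. None of the 9 passed edgeR's quasi-likelihood test at an adjusted p of 0.05 over all genes, where 0.0411% of tested genes were lower and 0.00588% higher. At an unadjusted p under 0.05, 5 of the 9 were lower and 0 higher (Dlx6, Lhx8, Dlx5, Nkx2-1 and Sp9), beside 5.66% of tested genes lower and 5.28% higher. For 7 of the 9 both cKO libraries were below both Control libraries, beside 22.2% of tested genes. For 0 of the 9 both were above, beside 22% of tested genes. The 7 include Dlx1, where cKO 2 (97.7 CPM) was nearly level with Control 2 (98.0 CPM). The median log2 fold change was -0.81 over the 9 genes and -0.0021 over all genes tested. DESeq2 called 1 of the 9, Lhx8, beside 0.617% of tested genes called lower and 0.47% called higher. By limma-voom 0 of the 9 were called, beside only 8 of all 17017 tested genes. In bulk RNA fewer cells of a type and less RNA per cell cannot be told apart.

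**Figure D1:**
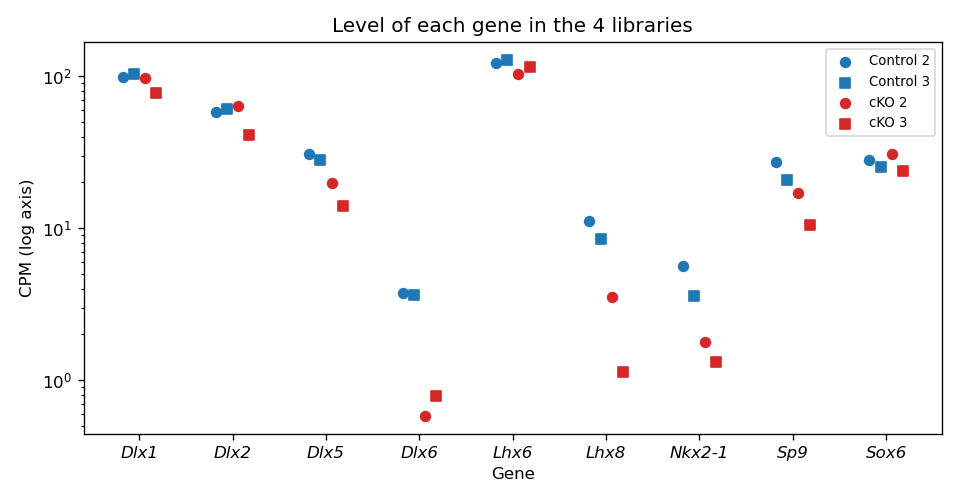
Level of each of the 9 genes in CPM (log axis) in the 4 libraries; circles are replicate 2, squares replicate 3, blue is Control and red is cKO. Lhx8, Nkx2-1 and Dlx6 show a wide gap between the groups, whereas the points of Dlx2 and Sox6 overlap.

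The DLX genes lie in convergent pairs, Dlx1 with Dlx2 and Dlx5 with Dlx6, and the fold changes of the latter pair were the larger ones. Dlx1 and Dlx2 lie on chromosome 2 (GRCm39, 71358457 to 71364325 on the plus strand and 71373752 to 71377098 on the minus strand), with 9426 bases between them. Dlx1 encodes the DLX factor that stays on in many mature interneurons. Its level was 98.0 CPM in Control 2, 103 CPM in Control 3, 97.7 CPM in cKO 2 and 76.8 CPM in cKO 3. Only cKO 3 was clearly below the others, and cKO 2 was level with Control 2. The log2 fold change was -0.20 (n = 2 in each group, SE 0.15; adjusted p = 0.672 by edgeR), and it was -0.04 without cKO 3. Dlx2, which acts with Dlx1 in progenitors and young neurons, stood at 57.9 and 60.7 CPM in the Control-labelled libraries and at 63.1 and 41.1 CPM in the cKO-labelled libraries. Here cKO 2 was the highest library and cKO 3 the lowest, so the groups overlapped. The log2 fold change was -0.19 (SE 0.22; adjusted p = 0.790 by edgeR) and turned to 0.09 when cKO 3 was left out. Counts of Dlx2 per 100 counts of Dlx1 were 59.1, 59.0, 64.6 and 53.6 in Control 2, Control 3, cKO 2 and cKO 3, and these overlapped too.

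Dlx5 and Dlx6 form the other pair, on chromosome 6 (6877805 to 6882085, minus strand, and 6863334 to 6868568, plus strand), with 9236 bases between them. Both act downstream of Dlx1 and Dlx2 as eminence cells leave the cell cycle and mature. Dlx5 stood at 30.9 and 28.1 CPM in the Control-labelled libraries and at 19.7 and 14.1 CPM in the cKO-labelled libraries. Both cKO libraries were below both Control libraries. Expression was 1.75-fold lower (log2 fold change -0.81, SE 0.24, n = 2 per group; edgeR adjusted p = 0.363). For each 100 counts of Dlx1 there were 31.5 and 27.4 counts of Dlx5 in Control 2 and Control 3 and 20.2 and 18.3 in cKO 2 and cKO 3. These within-library ratios did not overlap, and the exact two-sided permutation p was 0.333, the smallest that 2 libraries against 2 allow.

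Dlx6 had the largest fold change of the 9 genes and few counts. It had 73 and 72 counts in Control 2 and Control 3 and 11 and 18 in cKO 2 and cKO 3, or 3.72 and 3.65 CPM against 0.579 and 0.788 CPM. The Control libraries were close to each other and far above both cKO libraries. Expression was 5.34-fold lower (log2 fold change -2.42, SE 0.58, n = 2 per group; edgeR adjusted p = 0.301). Leaving out each library gave log2 fold changes between -2.66 and -2.22. The value is uncertain for a reason of annotation: the whole span of Dlx6 lies inside Dlx6os1, a long noncoding RNA gene on the opposite strand, known as Evf2 and a regulator of the Dlx5 and Dlx6 locus. The library kit does not mark the strand, so reads of these genes cannot be told apart where exons overlap. Dlx6os1 had 452 and 390 counts in the Control-labelled libraries and 379 and 303 in the cKO-labelled libraries. At 23.0, 19.8, 20.0 and 13.3 CPM in Control 2, Control 3, cKO 2 and cKO 3, its groups overlapped (log2 fold change -0.37, SE 0.27; adjusted p = 0.658 by edgeR). Dlx6 and Dlx6os1 summed to 26.7, 23.5, 20.5 and 14.1 CPM in the same order, lower in both cKO libraries. Most of this sum was Dlx6os1, so it follows that gene and cannot show whether reads of Dlx6 were assigned wrongly. Dlx1as, which overlaps Dlx1 in the same way, had 65, 89, 101 and 86 counts. Its fold change was 0.21 on the log2 scale (SE 0.43; adjusted p = 0.895 by edgeR).

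Of the remaining DLX genes, Dlx3 was at 0 counts in all 4 libraries. Dlx4 had 26 and 7 counts in the Control-labelled libraries and 0 in both cKO-labelled libraries, too few for the test.

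In the LIM-homeodomain pair, Lhx6 and Lhx8 had very different values. Lhx6 (chromosome 2, 35971965 to 35995420, minus strand) is on in interneurons of medial eminence origin from birth to adulthood. It was the most abundant of the 9 genes in CPM, with 122 and 127 CPM in the Control-labelled libraries and 104 and 115 CPM in the cKO-labelled libraries. Both cKO libraries were below both Control libraries by a small margin. The log2 fold change was -0.18 (n = 2 in each group, SE 0.12; adjusted p = 0.633 by edgeR) and lay between -0.26 and -0.11 when each library was left out. Lhx8 (chromosome 3, 154011931 to 154036296, minus strand), whose promoter above had no GC box, had 219 and 166 counts in the Control-labelled libraries and 67 and 26 in the cKO-labelled libraries. This was 11.2 and 8.43 CPM against 3.53 and 1.14 CPM. Every cKO value was less than the lowest Control value, and cKO 3 was below cKO 2. Expression was 4.22-fold lower (log2 fold change -2.08, SE 0.55; adjusted p = 0.325 by edgeR; DESeq2 adjusted p = 0.0415). Over all alternatives of the test and its input the adjusted p of Lhx8 ran from 0.0415 to 0.919, and the log2 fold change was -3.10 without cKO 2 and -1.47 without cKO 3. For each 100 counts of Lhx6 there were 9.16 and 6.63 counts of Lhx8 in the Control-labelled libraries and 3.40 and 0.987 in the cKO-labelled libraries, without overlap (exact two-sided permutation p = 0.333, the smallest this design allows).

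Nkx2-1 (chromosome 12, 56578743 to 56583693, minus strand), the selector gene of the medial eminence, had low levels in all libraries. It had 110 and 71 counts in the Control-labelled libraries and 34 and 30 in the cKO-labelled libraries, or 5.60 and 3.60 CPM against 1.79 and 1.31 CPM. The cKO libraries were close to each other and below both Control libraries, which differed more. Expression was 2.96-fold lower (log2 fold change -1.57, SE 0.51, n = 2 per group; edgeR adjusted p = 0.390), with values between -1.85 and -1.22 when each library was left out. Counts of Nkx2-1 per 100 of Lhx6 were 4.60 and 2.84 in Control 2 and Control 3 and 1.72 and 1.14 in cKO 2 and cKO 3. Nkx2-1 is also a gene of the hypothalamus. Of the 9 hypothalamic genes listed, only Avp and Pomc had enough counts to be tested, Six6 was at 0 in every library, and the list summed to 33.1 and 91.1 TPM (transcripts scaled by length to a total of 1000000) in the Control-labelled libraries and 8.35 and 12.04 TPM in the cKO-labelled libraries. Avp, the vasopressin gene, made up the largest share of each sum, at 21.7 and 83.6 TPM in Control 2 and Control 3 and 3.64 and 9.21 TPM in cKO 2 and cKO 3, and the 7 untested genes had at most 29 counts in any library. The part of this list in the value of Nkx2-1 was not tested.

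Sp9 (chromosome 2, 73102269 to 73115050, plus strand) stood at 27.4 and 20.8 CPM in the Control-labelled libraries and at 17.1 and 10.5 CPM in the cKO-labelled libraries. The libraries did not overlap, but the spread inside each group was large. Expression was 1.75-fold lower (log2 fold change -0.81, SE 0.30, n = 2 per group; edgeR adjusted p = 0.421), moving to -1.20 without cKO 2 and to -0.50 without cKO 3. The last 1602 bases of its span overlap Cir1 on the opposite strand, which had 382, 338, 331 and 313 counts in Control 2, Control 3, cKO 2 and cKO 3.

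Sox6 (chromosome 7, 115070107 to 115638031, minus strand) encodes a SOX factor that acts after Lhx6 in interneurons and is also used by oligodendrocyte precursors and cortical progenitors. In counts it did not separate the groups, at 28.2 and 25.1 CPM in the Control-labelled libraries and 30.9 and 23.6 CPM in the cKO-labelled libraries. The highest and the lowest library were both labelled cKO. The log2 fold change was 0.03 (n = 2 in each group, SE 0.22; adjusted p = 0.973 by edgeR), and its sign turned when Control 3 or cKO 2 was left out. In the authors' TPM, which divides by the length of the transcripts assigned, the same gene stood at 4.98 and 4.92 in the Control-labelled libraries and at 11.1 and 7.99 in the cKO-labelled libraries. TPM was thus higher in both cKO libraries while the counts overlapped. On log2(TPM + 1) the difference was 0.81 (limma adjusted p = 0.362), short of the threshold.

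Of the 6 members with at least 100 counts in every library, Sox6 was the one whose counts and TPM differed in this way. Counts per unit of TPM move with the average length of the transcripts to which reads were assigned. For Sox6 they were 111 and 100 in Control 2 and Control 3 and 53.0 and 67.5 in cKO 2 and cKO 3, while the median over 11021 genes with at least 100 counts in every library was 33.9, 34.3, 34.8 and 37.4. Relative to that median, the difference of Sox6 between the groups was -0.90 on the log2 scale (cKO lower), and 0.0454% of those 11021 genes had a value as low. For Dlx1, Dlx2, Dlx5, Lhx6 and Sp9 the same quantity lay between -0.01 and 0.08. The RefSeq table holds 6 Sox6 start windows, against 3 for Lhx6 and 1 for each of Dlx1, Dlx2, Lhx8, Nkx2-1 and Sp9. The deposited table gives 1 value per gene, so which Sox6 transcripts differed was not measured.

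**Figure D2:**
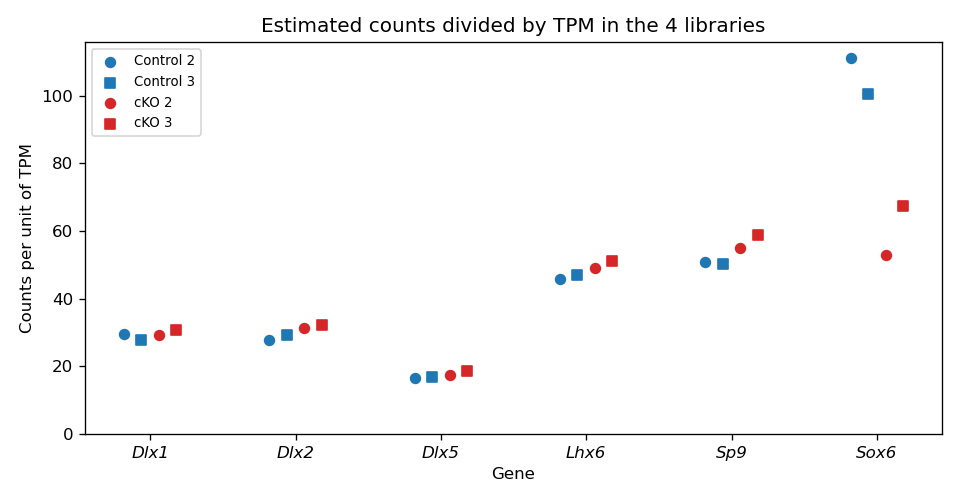
Estimated counts divided by TPM for the 6 members with at least 100 counts in every library; circles are replicate 2, squares replicate 3, blue is Control and red is cKO. Sox6 shows a wide gap, from 100 and 111 in the Control libraries to 53.0 and 67.5 in the cKO libraries.

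Levels between genes can be compared per length in TPM. In the libraries labelled Control the order was Dlx1 (69.2 ± 5.67 TPM, SD, n = 2), Lhx6 (52.7 ± 0.747), Dlx2 (40.9 ± 0.109), Dlx5 (34.6 ± 2.60), Lhx8 (11.4 ± 1.91), Sp9 (9.34 ± 1.71), Dlx6 (6.81 ± 1.77), Sox6 (4.95 ± 0.0445) and Nkx2-1 (3.32 ± 0.977). Among neighbours in this order, the libraries of Lhx8 and Sp9 overlapped and the others did not. In the libraries labelled cKO the first 4 kept their places, at 60.2 ± 4.73 TPM for Dlx1, 45.8 ± 8.08 for Lhx6, 33.8 ± 6.52 for Dlx2 and 19.3 ± 3.04 for Dlx5. Behind them came Sox6 (9.52 ± 2.17 TPM), Sp9 (4.99 ± 1.30), Lhx8 (2.61 ± 1.79), Dlx6 (1.61 ± 0.373) and Nkx2-1 (1.08 ± 0.166), of which the neighbours Lhx8 and Dlx6 overlapped.

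**Figure D3:**
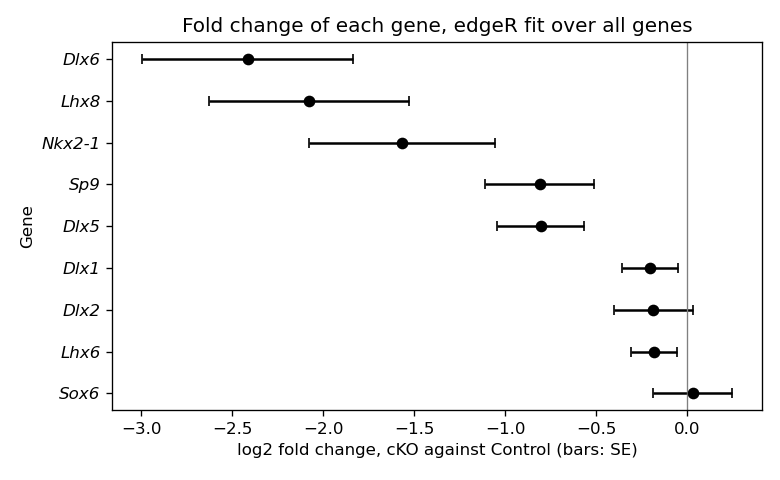
Log2 fold change (cKO against Control) of each of the 9 genes from the edgeR fit over all genes, with bars of 1 SE. Dlx6, Lhx8 and Nkx2-1 lie between -2.42 and -1.57, Dlx5 and Sp9 at -0.81, and the other 4 genes between -0.20 and 0.03.

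The libraries of a group were not alike. The library labelled cKO 3 was the lowest of the 4 for 7 of the 9 genes and cKO 2 for Dlx6 and Lhx6. The highest library was Control 2 for 5 genes, Control 3 for Dlx1 and Lhx6, and cKO 2 for Dlx2 and Sox6. At an unadjusted edgeR p under 0.05, 3 of the 9 genes were lower without cKO 3, beside 7.91% of all genes tested in that fit. Without cKO 2 there were 7, beside 7.29%. Without Control 2 there were 2, beside 2.58%, and without Control 3 there were 5, beside 2.58%. The median deviation of the 9 genes from their own mean was 0.48 in Control 2, 0.22 in Control 3, -0.17 in cKO 2 and -0.65 in cKO 3 on the log2 scale. The 5 other genes with the most similar deviations, out of 11134 with a mean of at least 5 CPM, were B9d1, Cluh, Nudt1, Cerox1 and Me3, at distances of 0.081 to 0.131 over these 4 libraries. For single members the nearest gene was Isl1 for Lhx8, Adora2a for Nkx2-1, Crabp1 for Dlx6 and Unc13c for Sp9. With 4 libraries such likeness is a description only.

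Genes that work with these factors were followed in lists. Of the 6 genes of GABA synthesis and transport, all had a negative log2 fold change (median -0.59). By edgeR 0 passed the adjusted test and 5 were lower at an unadjusted p under 0.05; DESeq2 and limma-voom called 0. For this and the following lists, the shares over all tested genes were 5.66% lower and 5.28% higher at an unadjusted edgeR p under 0.05, and 0.617% called lower and 0.47% called higher by DESeq2. By limma-voom only 8 of all 17017 tested genes were called. Gad1, whose product makes most of the GABA of the brain and which DLX factors activate, stood at 117 and 80.1 CPM in the Control-labelled libraries and 57.9 and 73.6 CPM in the cKO-labelled libraries (log2 fold change -0.59, SE 0.21; adjusted p = 0.415 by edgeR). For Gad2 the log2 fold change was -0.60 (SE 0.17). Slc32a1, the gene of the vesicular GABA transporter, was at -1.04 (SE 0.35). Gad1 and Gad2 were lowest in cKO 2, whereas 7 of the 9 transcription factor genes were lowest in cKO 3. Counts of Lhx6 per 100 counts of Gad1 were 104 and 159 in the Control-labelled libraries and 179 and 157 in the cKO-labelled libraries, which overlapped.

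Among 25 tested transcription factor genes of the eminences and of interneurons other than the 9, 11 were negative and 14 positive, with a median of 0.03. None passed edgeR's adjusted test; 4 were lower and 0 higher at an unadjusted p under 0.05, and DESeq2 called 4 and limma-voom 0. The 4 by unadjusted p were Zfhx3, Gbx2, Isl1 and Six3, factors of striatal, cholinergic or other ventral neurons. Gbx2 is also in the list of thalamic genes given below. Isl1, a LIM-homeodomain factor that works with Lhx8 in cholinergic neurons, stood at 26.6 and 22.7 CPM in the Control-labelled libraries and at 7.37 and 2.54 CPM in the cKO-labelled libraries (log2 fold change -2.32, SE 0.46; adjusted p = 0.264 by edgeR). For Zfhx3 the value was -1.88 (SE 0.34) and for Six3 -1.97 (SE 0.41). Gbx2 had 30 and 52 counts in the Control-labelled libraries and 0 in both cKO-labelled libraries. The 23 tested interneuron subtype and migration genes, the targets through which Lhx6 and Sox6 act among them, split 12 negative to 11 positive with a median of -0.03. Of these 4 were lower and 2 higher at an unadjusted p under 0.05, and none passed edgeR's adjusted test, 1 DESeq2's and 0 that of limma-voom. Sst, a neuropeptide gene that needs Lhx6 and Sox6, stood at 223 and 203 CPM in the Control-labelled libraries and 143 and 126 CPM in the cKO-labelled libraries (log2 fold change -0.67, SE 0.13; adjusted p = 0.242 by edgeR), while Npy had a log2 fold change of -0.03 (SE 0.18). Lamp5 and Ndnf, genes of layer 1 and related interneurons, had values of -1.91 (SE 0.53) and 0.84 (SE 0.25).

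**Figure D4:**
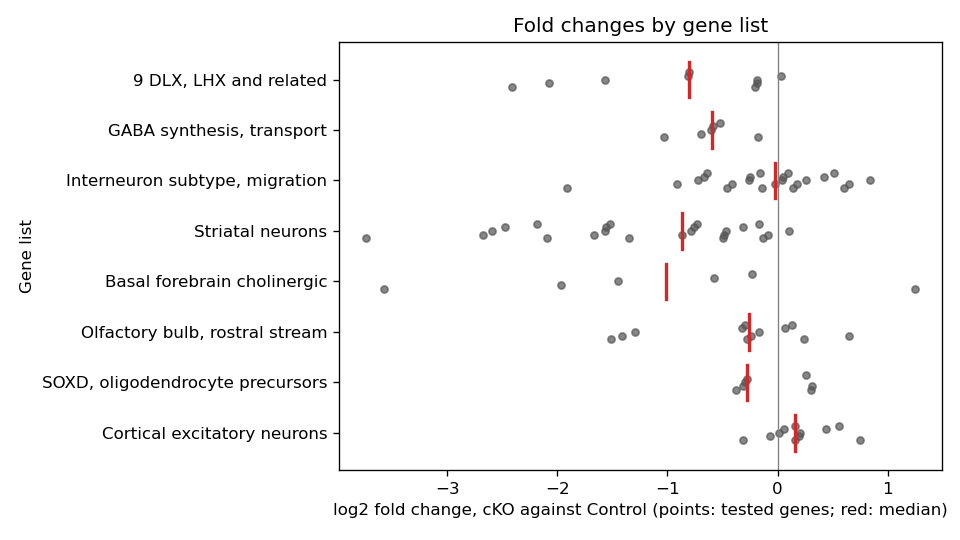
Log2 fold changes (cKO against Control) of the tested genes of 8 lists, 1 point per gene, with the median of each list in red. The medians are -0.81 for the 9 genes, -0.87 for striatal neurons, -0.03 for interneuron subtype and migration genes and 0.16 for cortical excitatory neurons.

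Markers of other cell types are given beside these values. The summed TPM of the striatal, basal forebrain cholinergic and olfactory lists was lower in both cKO libraries than in both Control libraries. For the olfactory list this rested on Pbx3, given below. The thalamic list overlapped narrowly in summed TPM and was lower in both cKO libraries in summed CPM. Of 23 striatal genes 22 were negative (median -0.87), and 19 were without overlap and lower in cKO, beside 22.2% of all tested genes. By edgeR 1 fell past the adjusted threshold, beside 0.0411% of all tested genes, and by DESeq2 11 did, beside 0.617%. The gene called by edgeR was Rxrg, encoding the retinoid X receptor gamma (87.3 and 63.5 CPM against 3.37 and 7.84 CPM; log2 fold change -3.73, SE 0.38; adjusted p = 0.0414 by edgeR). The striatal list summed to 584 to 731 TPM in the Control-labelled libraries and 336 to 391 TPM in the cKO-labelled libraries, and none of its genes was at 0 in every library. Of 6 tested basal forebrain cholinergic genes 5 were negative (median -1.02); 3 were lower at an unadjusted edgeR p under 0.05, beside 5.66% of all tested genes, and edgeR, DESeq2 and limma-voom called 0. Slc18a3, the vesicular acetylcholine transporter gene, had 66 and 117 counts in the Control-labelled libraries and 20 and 30 in the cKO-labelled libraries. Slc5a7, the choline transporter gene, was the positive one, with 0 and 23 counts in Control 2 and Control 3. It had 22 and 37 counts in cKO 2 and cKO 3 (log2 fold change 1.24, SE 1.36), and its groups overlapped. The cholinergic list summed to 52.1 to 55.1 TPM against 27.4 to 39.8 TPM, largely from Ache (48.8 and 44.1 against 25.4 and 36.7 TPM). Its defining gene Chat had 2 counts in Control 2 and 0 in the other libraries. Of 12 olfactory bulb and rostral stream genes 8 were negative (median -0.26), with sums of 93.6 to 107 TPM against 72.0 to 82.1 TPM. Without overlap, 4 were lower in cKO and 2 higher, beside 22.2% and 22% of all tested genes. The largest difference in TPM was that of Pbx3, at 35.9 and 26.3 TPM against 8.63 and 13.9 TPM. Without Pbx3 the sums of this list overlapped narrowly between the groups. Th was lower in both cKO libraries, Prokr2 and Cdhr1 overlapped, and Eomes was higher in both cKO libraries. Thalamic genes summed to 74.0 and 78.1 TPM in Control 2 and Control 3. In cKO 2 and cKO 3 the sums were 50.3 and 74.2 TPM, a narrow overlap. Calb2, also in the list of interneuron genes, made up most of each sum (53.2 and 57.7 against 37.8 and 56.5 TPM). Of the 7 thalamic genes 5 were negative. In CPM 4 were lower without overlap and 0 higher, beside 22.2% and 22% of all tested genes. DESeq2 called 1 lower, beside 0.617%. Tcf7l2 had 217 and 216 counts in the Control-labelled libraries and 100 and 172 in the cKO-labelled libraries. Meningeal and fibroblast genes went the other way, with 7 of 8 positive and 137 to 185 TPM against 206 to 231 TPM. Choroid plexus genes stood at 1102 and 14.5 TPM in Control 2 and Control 3 and at 449 and 10.7 TPM in cKO 2 and cKO 3, so they did not follow the genotype. Of 11 cortical excitatory genes 9 were positive (median 0.16). At an unadjusted edgeR p under 0.05, 3 were higher and 1 lower, beside 5.28% and 5.66% of all tested genes. For 5 both cKO libraries were above both Control libraries, beside 22% of all tested genes; edgeR called 0 and DESeq2 1. The log2 fold change was 0.44 (SE 0.12) for Neurod6 and 0.56 (SE 0.16) for Neurod2, neurogenic factors of excitatory neurons, with adjusted p = 0.327 and adjusted p = 0.362 by edgeR. Emx1, whose regulatory region drives the Cre, stood at 12.6 and 11.1 CPM against 22.5 and 17.2 CPM (log2 fold change 0.75, SE 0.25; adjusted p = 0.399 by edgeR). The 7 listed genes of the SOX5, SOX6 and SOX13 group and of oligodendrocyte precursors, cells that also use Sox6, split 4 negative to 3 positive, with sums of 182 to 190 TPM against 163 to 190 TPM. Radial glia genes were negative in 5 of 8 cases (2595 to 2609 TPM against 2272 to 2407 TPM). Fabp7, which overlapped in CPM, made up most of each sum (2265 and 2229 against 2070 and 1909 TPM). In CPM the list sums overlapped (1454 and 1502 against 1470 and 1317). Without overlap, 2 of its genes were lower in cKO and 2 higher, beside 22.2% and 22% of all tested genes. Microglial genes were negative in 5 of 6 cases (137 to 155 TPM against 115 to 126 TPM). Red blood cell genes were negative in 1 of 5 (11528 to 12306 TPM against 7297 to 16395 TPM). Endothelial genes were negative in 1 of 6 (141 to 150 TPM against 139 to 148 TPM). The negative endothelial gene, Cldn5, made up most of each of those sums (129 and 122 against 112 and 114 TPM). The endothelial median was 0.34. In CPM 5 endothelial genes were higher in cKO without overlap and 1 lower, beside 22% and 22.2% of all tested genes. Their summed CPM was 179 and 169 in the Control-labelled libraries and 194 and 189 in the cKO-labelled libraries. The part of these cell types in the values of the 9 genes was not tested.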

How the data were processed

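Per the labels' protocols, TRIzol-purified total RNA was cleared of DNA, and libraries were built with SMART-Seq v4, which starts from poly(A) tails and is not stranded. The authors used DRAGEN and GRCm39, per the submitters' processing notes; its version, annotation and settings were not given in the sources used. The authors deposited estimated counts and TPM per gene for each library. The estimated count was not whole in 12.0% to 13.5% of the table's rows. Reads shared by several genes may have been split.

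Estimated counts were rounded to whole numbers, filtered with edgeR's default (version 4.0.16, R 4.3.3), scaled with TMM factors (0.979 to 1.02) and tested for genotype with edgeR's quasi-likelihood test, with Benjamini-Hochberg adjustment over 17017 genes and a threshold of 0.05. Standard errors were derived from the log2 fold change and the F statistic. Directions are cKO against Control. The test was checked on simulated data. Alternatives used limma 3.58.1 and DESeq2 1.42.0. TPM was used for levels per length, list sums and counts per TPM. The libraries of a group were not duplicates, with chi-square values per degree of freedom of 12.8 (Control) and 27.7 (cKO).

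The 9 genes and the 17 other lists were chosen with earlier results of these data known. Beside the 9, the rule for named genes took up to 4 genes of smallest p per list and a fixed few (such as Gad1 and Emx1). It also took the genes nearest to the 9 in library pattern. Dlx3, Dlx4, Npy, Chat, Cir1, Slc5a7, Prokr2 and Cdhr1 were named after their values were seen. Promoter sequences are RefSeq's (GRCm38.p6) and no coordinate was carried between builds; 7 of the 9 genes matched.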

Additional observations from a re-analysis of the deposited data

How the results depend on the processing

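The 9 genes were refitted under 14 alternatives. Of the 126 resulting fold changes, 122 kept their direction and their side of the threshold, 3 turned sign and 1 passed the threshold. Dlx2 turned to 0.0897 without cKO replicate 3, and Sox6 to -0.0526 without Control replicate 3 and to -0.172 without cKO replicate 2; without each library in turn Dlx2 ranged from -0.526 to 0.0897 and Sox6 from -0.172 to 0.212. The cause was not tested. Lhx8 passed with DESeq2 (log2 fold change -2.08), so the count of the 9 genes called was 1 there and 0 under every other alternative. The number of the 9 lower at an unadjusted p under 0.05 was 2 to 7 when each library was left out and 5 under the other alternatives. Calls over all genes numbered 8 in the reported fit, 58 with no filter, 185 with DESeq2, 47 on log2(TPM + 1) and 32 on log2(TPM + 0.1), and 0 to 2 when each library was left out. For genes of the other lists there was 1 call in the reported fit, 10 with no filter, 19 with DESeq2, 2 on each TPM scale and 0 when each library was left out. Leaving out a library leaves 1 in its group, which is then assumed to vary like the other group. With the replicate number as a block, 7 genes were called over all genes, 0 of the 9 among them. Same-numbered libraries deviated together with a correlation of only 0.0136 over genes. A value over all genes cannot settle whether the numbers pair the samples. Choroid plexus genes went with the number, at 1102 and 449 TPM in Control 2 and cKO 2. They stood at 14.5 and 10.7 TPM in Control 3 and cKO 3. Dlx6 with 29 counts and Nkx2-1 with 64 counts in the libraries labelled cKO are limited by depth.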
